A study of Mus musculus with 26 samples.

Results

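The replication-dependent histone genes of brown adipose tissue (BAT) were taken as the genes whose symbol begins with Hist1h, Hist2h, Hist3h or Hist4h and whose counts summed to at least 50 over all mice. Of 50686 genes in the table, 50376 had a mouse symbol, 68 carried such a histone name and 49 reached the minimum. By name they belong to the linker histone H1 (6 genes), H2A (8), H2B (12), H3 (10) and H4 (13), and 48 of them are annotated as protein-coding. The other one, Hist3h2bb-ps in the H2B class, is a processed pseudogene with 107 counts and was too low to test. The members were chosen by their summed counts over all 26 mice, which are given here as a description, and not by the comparisons between groups. Just inside the limit were Hist1h2ac with 58 counts and Hist1h4m with 60, and just outside were Hist1h2bp with 47 and Hist1h2ad with 37. Of the 19 histone-named genes under the minimum, 10 were listed at 0 in all mice.

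RNA was sequenced from BAT of 26 male C57BL/6J mice, 12 to 16 weeks old, in a study of Afadin, an adaptor protein of cell-cell junctions encoded by Afdn (formerly Mllt4). Fat-specific Afadin knockout mice (FAKO) carried 2 floxed Mllt4 alleles and Cre under the adiponectin promoter, and control mice were their littermates. All mice spent 2 weeks at thermoneutrality, given as 30 °C in the labels and as 29 °C in the study's methods. From there 7 mice of each genotype were sampled directly, and after a further 6 h at 5 °C another 5 controls and 7 FAKO animals. The adiponectin promoter is active in adipocytes, so other cells of the tissue would keep the gene, and the whole tissue was sequenced. Libraries were made from total RNA depleted of ribosomal RNA, without selection for a poly(A) tail.

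Total counts ran from 12705969 to 25732258 per mouse, and the histone genes held 2955 to 7741 of them. All levels are CPM, read counts scaled for library size with TMM factors. Ucp1, the uncoupling protein that defines brown fat, ran from 652 to 1292 CPM in control mice at 30 °C. At 5 °C it ran from 15340.2 to 16658 CPM in control mice. All 8 listed brown adipocyte markers passed the filter on low counts. By edgeR's test (adjusted p below 0.05), 3 of them were higher and 3 lower in cold control mice, where 31.6% and 33.4% of all genes were. In cold FAKO mice 3 were higher and 4 lower, where 33.7% and 34.9% of all genes were. Afdn ran from 151 to 214 CPM in control mice at 30 °C and from 154 to 231 CPM in mice labelled FAKO at 30 °C, and at 5 °C from 67.9 to 79.2 and from 53.3 to 65.3 CPM. Since the level at 30 °C did not separate the genotypes, the groups are named by their labels. The mitochondrial rRNA mt-Rnr2 took 8.10% to 28.5% of counts. Replicate 7 of the control mice at 30 °C (8.10%) and replicate 28 of the FAKO mice at 5 °C (12.0%) were lowest in their groups, and without both the counts of histone genes lower in the cold were 33 in control mice and 23 in FAKO mice.

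Replication-dependent histones are made during S phase, when newly copied DNA has to be packed into nucleosomes. Most of their genes have no introns, and most of their mRNAs end in a conserved stem-loop in place of a poly(A) tail. The stem-loop is bound by SLBP, and the U7 snRNP directs the cut that follows it, while NPAT activates transcription of the gene clusters at the histone locus body. Linker histones sit on the DNA where it enters and leaves the nucleosome. Some members are also transcribed as polyadenylated mRNAs in cells that do not divide.

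The stem-loop was the feature by which most of these transcripts could be recognised. It was found in an annotated GENCODE M21 transcript of 34 of the 49 genes, and in 53 of 55450 annotated genes overall (0.0956%), of which 9 had no histone name. The following stem-loops, each with up to 5 flanking bases and written as DNA, are those of genes on which the results turn. Capitals mark the 2 arms that pair with each other.
Hist1h1c: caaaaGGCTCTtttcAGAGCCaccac
Hist1h1e: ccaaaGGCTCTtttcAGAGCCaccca
Hist2h2ac: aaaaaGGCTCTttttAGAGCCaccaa
Hist1h3e: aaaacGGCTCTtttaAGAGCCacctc
Hist1h3f: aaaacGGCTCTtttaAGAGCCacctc
Hist1h4d: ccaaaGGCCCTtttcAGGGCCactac
Hist2h4: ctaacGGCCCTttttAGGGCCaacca
Hist4h4: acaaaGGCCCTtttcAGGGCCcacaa
All 10 H4 genes with a match had arms of the GGCCCT and AGGGCC form, and all 24 genes of the other classes had GGCTCT and AGAGCC. Hist1h1c and Hist1h1e had the same arms and the same loop letters. In the annotated transcripts of Hist1h2bc and Hist2h2be no stem-loop of these forms was found. Annotated transcripts often ran on past the stem-loop, by 840 bases in Hist1h1c, 1153 in Hist1h1e and 2445 in Hist4h4.

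Promoters from RefSeq (GRCm38.p6, 250 bases before to 50 bases after the start) were matched for 43 of the 49 genes. The letters CCAAT, on either strand, stood in all 6 H1, all 8 H2A, all 9 H2B and all 8 H3 promoters, in 3 of 12 H4 promoters (25%) and in 37.4% of all 32817 promoters. The letters TATAAA stood in 28 of the 43 histone promoters (65.1%) and in 13.6% of all. The letters AAACACA stood in 5 of 6 H1 promoters (83.3%) and in 7.19% of all. Each motif was searched on both strands and on its own, with no account of overlaps. The promoters of Hist1h1c (chr13:23738557-23738856, plus strand) and Hist1h1e (chr13:23622509-23622808, minus strand) are shown because these linker histone genes responded differently to cold. Capitals mark the motifs, read along the gene's strand.
Hist1h1c: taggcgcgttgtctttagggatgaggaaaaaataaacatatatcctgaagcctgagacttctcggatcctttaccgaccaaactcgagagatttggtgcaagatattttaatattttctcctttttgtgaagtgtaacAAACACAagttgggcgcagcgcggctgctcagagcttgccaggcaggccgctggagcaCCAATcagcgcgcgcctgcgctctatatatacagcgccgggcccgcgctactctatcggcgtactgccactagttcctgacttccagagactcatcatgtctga
Hist1h1e: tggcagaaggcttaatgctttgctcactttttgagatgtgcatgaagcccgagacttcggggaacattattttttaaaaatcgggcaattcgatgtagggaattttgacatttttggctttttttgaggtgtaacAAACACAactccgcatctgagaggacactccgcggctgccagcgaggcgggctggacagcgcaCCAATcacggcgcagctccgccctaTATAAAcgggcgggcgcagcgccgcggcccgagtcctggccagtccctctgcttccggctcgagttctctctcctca
Both held AAACACA and CCAAT, and the TATAAA letters stood only in that of Hist1h1e. TATAAA was also missing from the promoters of Hist1h4c, Hist1h3e and Hist4h4, which fell in cold control mice. Only exact letters were searched, and a link to the cold response was not tested. A match describes the sequence and shows no binding.

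Hist1h1c, which codes for the linker histone H1.2, alone held 31.1% of all counts in the 49 genes. Levels per kilobase of annotated exon were also taken in control mice at 30 °C. The medians were 74.2 CPM per kb for Hist1h4h, 50.8 for Hist1h1c, 48.8 for Hist1h4c, 37.8 for Hist1h4d and 16.7 for Hist1h2bc. The other genes were lower on this scale, beginning with Hist1h1e at 15.6 CPM per kb. This order depends on the annotation, which runs past the stem-loop by 46 bases in Hist1h4h and 770 in Hist1h4d. The share of 100-base stretches that occur in no other annotated transcript also differed, with 61.5% in Hist1h4h and 100% in Hist1h4d. The values therefore do not rank the genes by their mRNA. Of the 49 genes, 39 passed edgeR's filter on low counts and were tested among 17286 genes. The other 10 had 58 to 148 counts in total and were not tested. Most members lay in the cluster on chromosome 13 (21715763 to 23764406 of GRCm38, from Hist1h2bl to Hist1h1a), the Hist2 genes on chromosome 3, the Hist3 genes on chromosome 11 and Hist4h4 on chromosome 6.

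To determine how the histone genes responded to cold, control mice at 5 °C were first compared with those at 30 °C. No histone gene rose, and 30 of the 39 tested fell (76.9%, edgeR's quasi-likelihood test with adjusted p below 0.05), whereas over all genes 33.4% fell and 31.6% rose. An unadjusted p below 0.05 was found for 32 genes (82.1% against 67.9%), all of them lower, and DESeq2 also called none higher (31.5% of all genes). The median log2 fold change of the 39 genes was -0.99, a median fold of 0.502, against -0.01 over all genes. The fall was seen in every class, in 4 of 5 tested H1, 4 of 5 H2A, 6 of 9 H2B, 5 of 8 H3 and 11 of 12 H4 genes. In 21 genes (53.8%) all 5 control mice at 5 °C were below all 7 at 30 °C, which held for 22.9% of all genes. In none were all cold mice above the others, against 23.5% of all genes. Among the 10 genes that were not tested, 8 had a lower median at 5 °C than at 30 °C in control mice. The minimum of 50 counts was reached by 46 members on the mice at 30 °C alone and by 40 on those at 5 °C alone. The 40 included all 39 tested genes, so most of the untested genes were members only through counts at 30 °C. That choice favours a lower median at 5 °C, and the count of 8 therefore cannot show a fall.

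Summed over the 49 genes, the level per mouse was 316 to 439 CPM (median 344) in control mice at 30 °C, and 217, 206, 267, 223 and 215 CPM in the 5 control mice at 5 °C. The groups did not overlap. The ratio of the medians was 0.631 for all 49 genes and 0.473 without Hist1h1c. By class it was 0.436 for H3, 0.495 for H4, 0.571 for H2A and 0.589 for H2B, but 0.874 for H1, in which Hist1h1c is included. With less of these RNAs in whole tissue, fewer cells of a type and less RNA per cell cannot be told apart.

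Markers of other cell types were described over the same comparison, in which 33.4% of all genes fell and 31.6% rose. In control mice at 30 and 5 °C the summed Schwann cell markers ran from 121 to 144 and from 80.5 to 100.4 CPM, with 2 of 6 lower, and the endothelial markers from 486 to 655 and from 780.2 to 910.1 CPM, with 4 of 7 higher and 3 lower. Neither pair of ranges overlapped. T and NK cell markers ran from 3.12 to 9.75 and from 1.48 to 3.63 CPM, with 3 of 6 tested lower. Skeletal muscle markers ran from 28.8 to 7488 CPM over the mice, and none of the 8 passed the test in either genotype. None of these lists had a marker at 0 in all mice, and their part in the histone results was not tested.

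**Figure D1:**
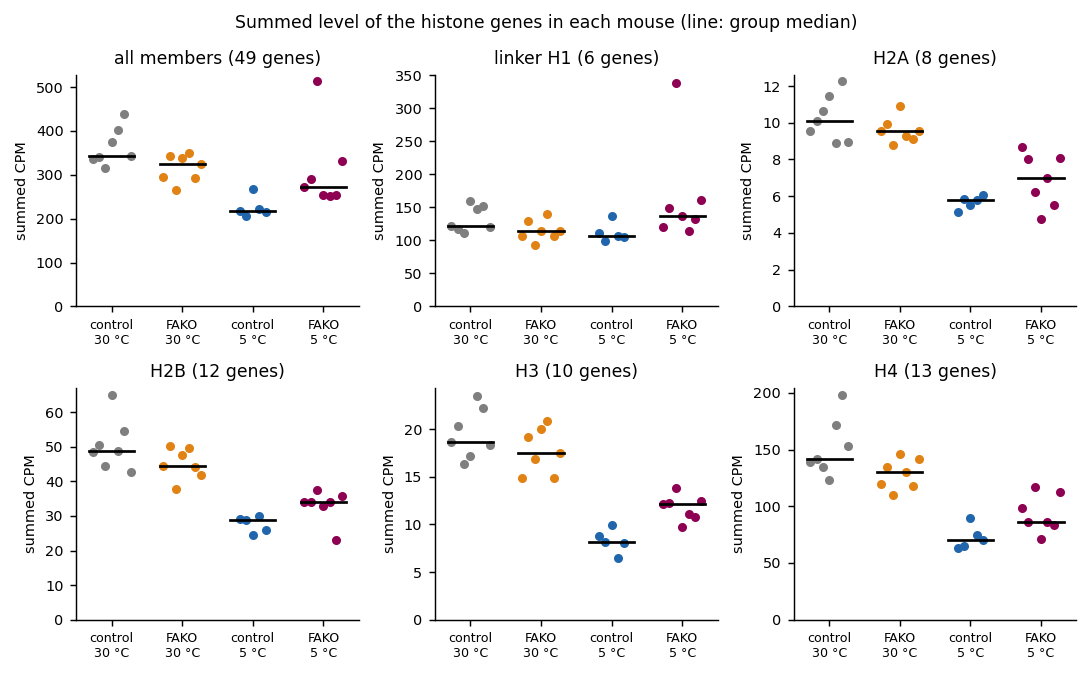
Summed CPM of the histone genes, all 49 and by class, in each mouse of the 4 groups, with a line at the group median. The 5 control mice at 5 °C sit at 206 to 267 CPM over all genes, below the 316 to 439 CPM at 30 °C, the ranges overlap in the H1 panel, and 1 FAKO mouse at 5 °C stands apart at 513 CPM.

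Among H4 genes, Hist1h4d had 35.2 to 55.4 CPM (median 43.0) in control mice at 30 °C and 17.6, 19.6, 27.0, 20.7 and 19.1 CPM at 5 °C. It fell by 1.09 on the log2 scale (SE 0.12, adjusted p = 1.32e-08), and the groups did not overlap. Other H4 genes of the chromosome 13 cluster fell too. Hist1h4c fell by 1.15 (SE 0.14, adjusted p = 4.44e-08) from a median of 40.01 to 17.9 CPM, and Hist1h4h fell by 0.99 (SE 0.17, adjusted p = 1.74e-05) from 34.9 to 19.2 CPM. Hist4h4, the only member on chromosome 6, showed the deepest fall of the 39. It had 4.37 to 6.57 CPM at 30 °C and 1.30, 0.836, 1.63, 1.56 and 1.61 CPM at 5 °C, and fell by 1.91 (SE 0.24, adjusted p = 9.38e-08). Hist1h4b, a low gene of which 28.2% of 100-base stretches occur once among annotated transcripts, fell by 1.84 (SE 0.36, adjusted p = 6.34e-05). Hist2h4 fell by 0.53 (SE 0.12, adjusted p = 0.000262). The exception in this class was Hist1h4i with -0.25 (SE 0.29, adjusted p = 0.478).

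H3 genes showed a similar range. Hist1h3e had 7.70 to 11.1 CPM (median 9.36) in control mice at 30 °C, and 3.20, 1.81, 3.26, 1.82 and 2.65 CPM at 5 °C. All 5 cold mice were below all 7 others, and it fell by 1.85 (SE 0.19, adjusted p = 2.87e-09). Hist1h3f, which codes for the same class, had 2.60 to 4.82 CPM (median 3.93) at 30 °C and 1.72, 1.18, 2.19, 1.72 and 1.56 CPM at 5 °C. It fell by 1.14 (SE 0.17, adjusted p = 1.35e-06), again without overlap. Hist1h3a fell by 1.00 (SE 0.34, adjusted p = 0.012), with groups that overlapped. Hist1h3b, Hist1h3c and Hist1h3h did not pass the test, with log2 fold changes of -0.46, -0.80 and -0.33.

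H2A and H2B pair with each other in the nucleosome. Hist2h2be, an H2B gene, had 10.1 to 14.5 CPM (median 11.4) in control mice at 30 °C and 5.46, 5.29, 4.25, 5.35 and 4.44 CPM at 5 °C. Every cold mouse was below every mouse at 30 °C, and it fell by 1.31 (SE 0.14, adjusted p = 4.09e-09). Hist1h2be fell by 1.00 (SE 0.17, adjusted p = 7.1e-06) and Hist1h2bc by a smaller 0.61 (SE 0.14, adjusted p = 0.000435). Exons of Hist1h2be overlap those of Hist1h1e on the same strand, and how the counting treated reads in both is not given in the sources used here. Of the H2A genes, Hist2h2ac fell by 0.75 (SE 0.15, adjusted p = 6.57e-05) from a median of 4.81 to 2.96 CPM. Hist1h2ab did not pass the test (log2 fold change -1.04, SE 0.49, adjusted p = 0.0641).

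The linker histones divided. Hist1h1e, which codes for H1.4, had 24.5 to 39.7 CPM (median 30.05) in control mice at 30 °C and 10.3, 9.68, 11.7, 9.15 and 8.64 CPM at 5 °C. It fell by 1.67 (SE 0.26, adjusted p = 3.67e-06) with no overlap. Hist1h1d, which codes for H1.3, fell by 1.72 (SE 0.25, adjusted p = 7.99e-07), and Hist1h1a (H1.1) and Hist1h1b (H1.5) fell by 1.33 and 0.72 (adjusted p = 3.05e-05 and 0.0138). Hist1h1c was the only one of the 39 genes with a positive value. It had 68.3 to 98.7 CPM (median 79.2) at 30 °C and 93.3, 80.7, 118, 90.9 and 91.2 CPM at 5 °C. The groups overlapped, and its log2 fold change was 0.17 (SE 0.19, adjusted p = 0.437).

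**Figure D2:**
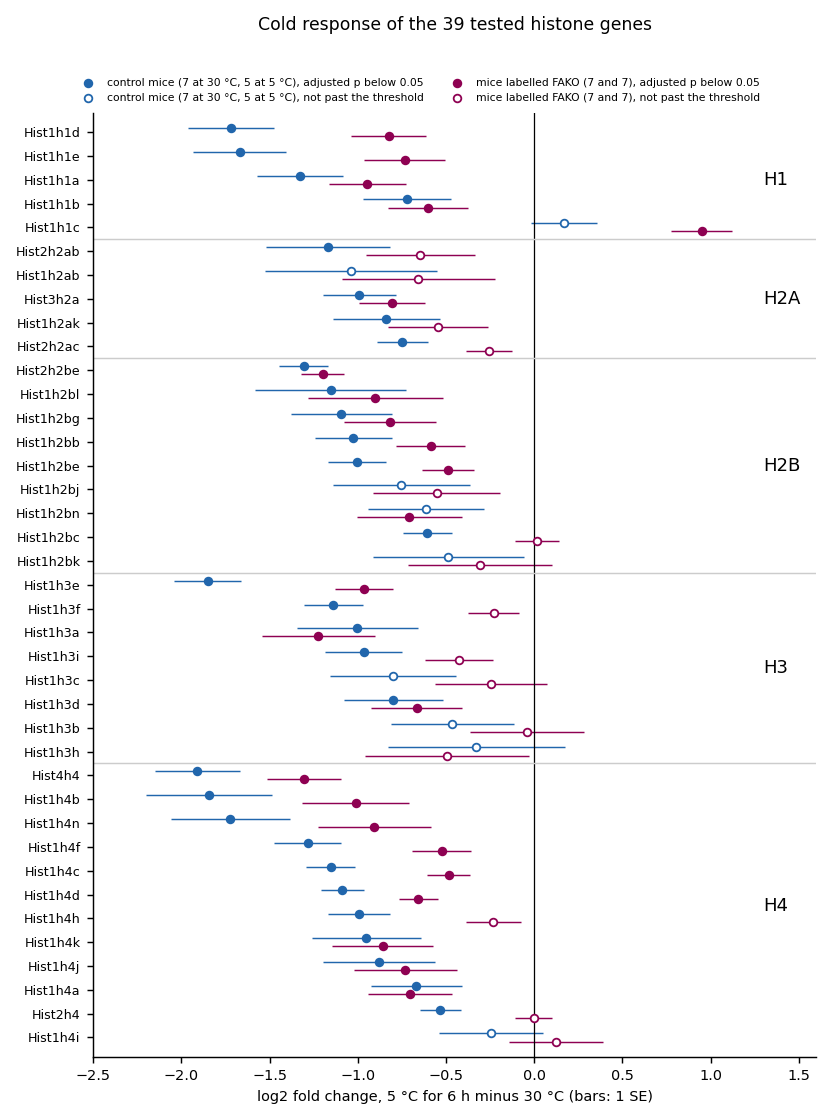
Log2 fold change of each tested histone gene between 5 °C and 30 °C, with bars of 1 SE, by class, in control mice (blue) and mice labelled FAKO (purple). Filled points passed edgeR's test with an adjusted p below 0.05, which in control mice are 30 genes, all left of 0, and in FAKO mice 23 genes left of 0 and Hist1h1c at 0.95.

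In mice labelled FAKO the cold lowered 23 of the 39 genes (59% against 34.9% over all genes) and raised 1, Hist1h1c (2.56% against 33.7%). The median log2 fold change was -0.64 against -0.03 over all genes, and 36 of 39 values were negative. By class, 4 of 5 H1, 1 of 5 H2A, 6 of 9 H2B, 3 of 8 H3 and 9 of 12 H4 genes fell. In 5 genes (12.8%) all 7 FAKO mice at 5 °C were below all 7 at 30 °C, compared with 19.3% over all genes, and in Hist1h1c (2.56%) all were above, compared with 21.1%. Summed over the 49 genes the level was 266 to 349 CPM (median 325) at 30 °C and 253 to 513 CPM (median 273) at 5 °C, and these groups overlapped. The ratio of the medians was 0.839, and 0.646 without Hist1h1c.

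1 FAKO mouse at 5 °C, replicate 24, stood apart in the linker histones. Its summed level was 513 CPM, where the other 6 had 253 to 331, and it had 281 CPM of Hist1h1c, 42.8 of Hist1h1e and 8.98 of Hist1h1d. Its replication-independent histone genes summed to 429 CPM, against a group median of 278, and its TMM factor was 0.769, where the mice of its group had 0.759 to 1.01. Its marker sums were above the ranges of the control mice at 5 °C for brown adipocytes (27956 CPM), macrophages (242 CPM) and endothelial cells (937 CPM), and within them for the other 7 cell types. Other mice of its group were higher still for brown adipocytes (up to 31598 CPM) and macrophages (up to 264 CPM, group median 252). Among the FAKO mice at 5 °C it had the highest endothelial and the lowest B and plasma cell and erythroid sums (2.62 and 518 CPM). The part of these values in its histone levels was not tested. Without it, 21 histone genes fell and Hist1h1c again was the 1 that rose.

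Hist1h1c rose in FAKO mice from 60.3 to 85.3 CPM (median 72.6) at 30 °C to 96.7 to 281 CPM (median 118) at 5 °C. All 7 cold mice were above all 7 others, as held for 21.1% of all genes. An exact two-sided permutation test gave p = 0.000583, the lowest value possible with 7 and 7 mice. Any gene without overlap gets this value, so it adds nothing to the separation itself. It rose by 0.95 on the log2 scale (SE 0.17, adjusted p = 2.27e-05), and by 0.68 without replicate 24 (adjusted p = 3.08e-06). Hist1h1e moved the other way, from a median of 26.7 to 12.3 CPM, and fell by 0.74 (SE 0.23, adjusted p = 0.00585), or by 1.15 without replicate 24. Hist1h1d fell by 0.82 (SE 0.21, adjusted p = 0.00121), and by 1.08 without that mouse.

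Outside the linker histones, Hist4h4 had 3.14 to 5.25 CPM (median 4.14) in FAKO mice at 30 °C and 0.536 to 2.57 CPM (median 1.75) at 5 °C, and fell by 1.30 (SE 0.21, adjusted p = 4.73e-06). Hist2h2be fell by 1.20 (SE 0.12, adjusted p = 2.03e-09), from a median of 12.4 to 4.95 CPM. Both changed without overlap between the groups, as did Hist1h4d, which fell by 0.66 (SE 0.11, adjusted p = 6.5e-06), and Hist1h3e, which fell by 0.96 (SE 0.16, adjusted p = 8.65e-06). Hist1h3a fell by 1.22 (SE 0.32, adjusted p = 0.0014), Hist1h4b by 1.01 (SE 0.30, adjusted p = 0.00467), Hist1h2be by 0.49 (SE 0.15, adjusted p = 0.00473) and Hist1h4c by 0.49 (SE 0.12, adjusted p = 0.00102). Hist1h4h, Hist1h3f, Hist2h2ac, Hist1h2bc and Hist2h4 did not pass the test in FAKO mice (adjusted p = 0.187, 0.164, 0.084, 0.918 and 0.992). These depended on the scaling, since with library size alone, which moved the median of all genes from -0.03 to -0.34, all 5 passed as lower, with values of -0.55, -0.55, -0.56, -0.31 and -0.31 (adjusted p = 0.00897, 0.00696, 0.00303, 0.0465 and 0.0379).

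**Figure D3:**
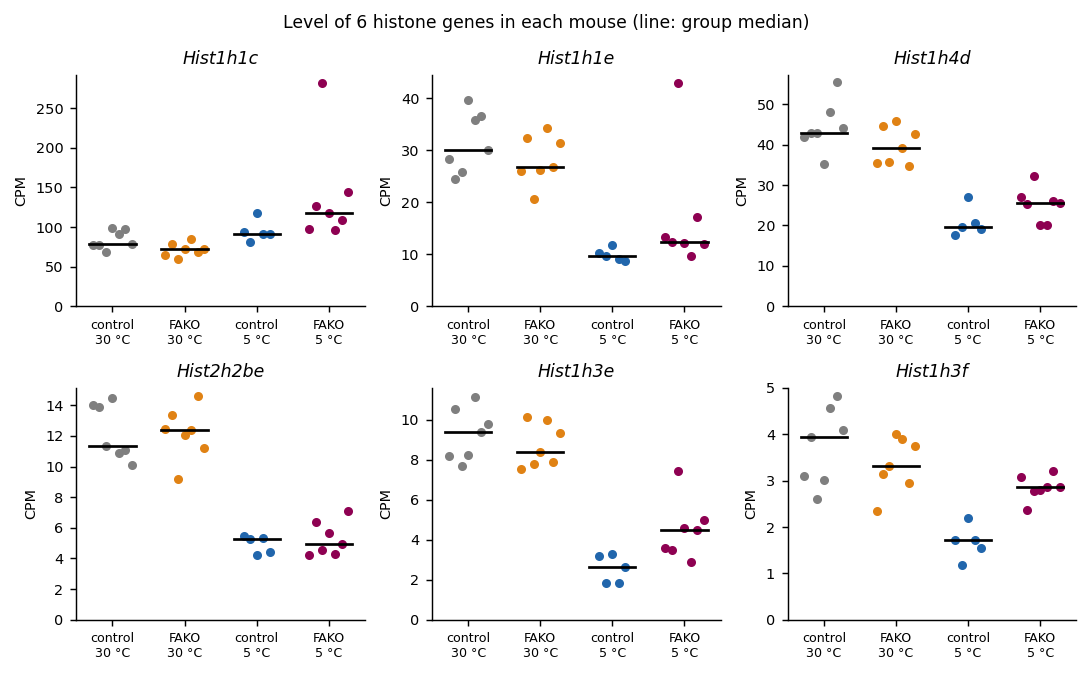
CPM of Hist1h1c, Hist1h1e, Hist1h4d, Hist2h2be, Hist1h3e and Hist1h3f in each mouse, with a line at the group median. Hist1h1c lies higher in FAKO mice at 5 °C (median 118 CPM) than at 30 °C (72.6 CPM), whereas the medians of the other 5 genes are lower at 5 °C in both genotypes.

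The make-up of the mRNA of the 6 H1 members was compared next. A share within a mouse does not depend on the scaling between libraries. H1f0 and H1fx, linker histone genes that are not members, were left out of these sums. Hist1h1c made up 61.7% to 66.2% (median 63.5%) of H1 CPM in control mice at 30 °C and 84.6%, 82.0%, 86.2%, 85.8% and 86.9% in the 5 at 5 °C. In FAKO mice it made up 61.0% to 65.1% (median 63.3%) at 30 °C and 81.0% to 89.2% (median 84.5%) at 5 °C. Replicate 24 was within that range at 83.1%. The share was higher in each of the 12 mice at 5 °C than in any of the 14 at 30 °C. Hist1h1e went from a median share of 24.1% to 8.64% in control mice and from 24.6% to 8.88% in FAKO mice, and Hist1h1d from 7.10% to 2.45% and from 7.42% to 2.65%. These shares are described without a test.

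**Figure D4:**
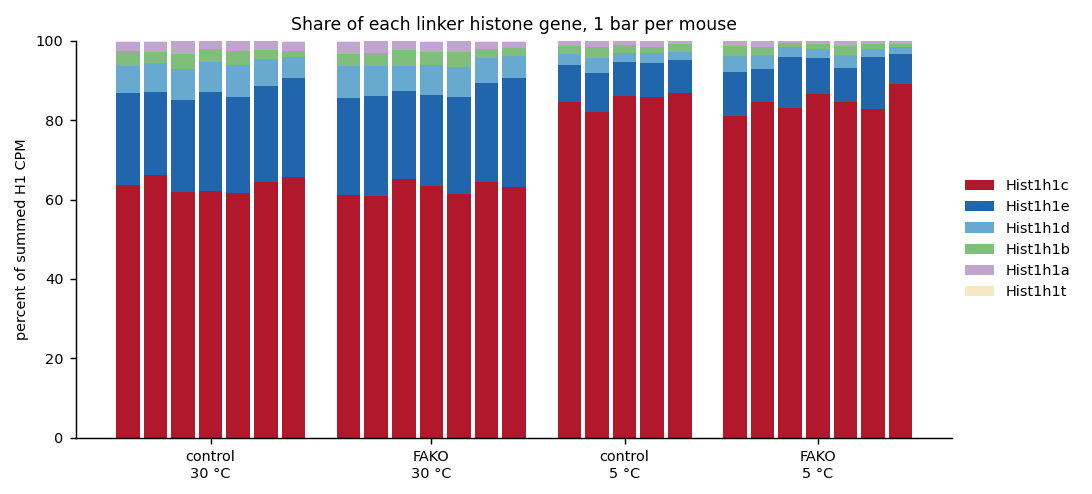
Share of each H1 member in the summed CPM of the H1 members, without H1f0 and H1fx, 1 bar per mouse, as a percentage. The Hist1h1c part is 61.0% to 66.2% in the mice at 30 °C and 81.0% to 89.2% in those at 5 °C, in both genotypes.

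To ask whether the response depended on the genotype label, the mice labelled FAKO were compared with control mice at each temperature. At 30 °C none of the 39 genes passed edgeR's test (0.0579% of all genes were higher and 0.0231% lower), none had groups that did not overlap (0.174% and 0.0752%), and 3 had an unadjusted p below 0.05 (7.69% against 7.65%). DESeq2 made no call there either (0.246% of all genes higher and 0.0822% lower). At 5 °C again none passed (0.0463% of all genes were higher and 0.0926% lower), while 12 had an unadjusted p below 0.05 (30.8% against 13.4%), and DESeq2 called 2 higher of the 19 genes to which it gave an adjusted p (10.5% against 0.882% of all genes). The median log2 difference of the 39 genes was -0.17 at 30 °C and 0.22 at 5 °C, against -0.02 and 0.02 over all genes. At 30 °C 37 of the 39 values were negative, and with library size alone as the scaling their median was -0.03 while that of all genes was 0.13.

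Hist1h3f was the only histone gene whose groups did not overlap between the labels at 5 °C (0.33% of all genes were higher without overlap and 0.781% lower). All 7 FAKO mice, at 2.36 to 3.21 CPM (median 2.87), were above the 5 control mice, which had 1.18 to 2.19 CPM. The log2 difference was 0.75 (SE 0.17) and did not pass the threshold over all genes (adjusted p = 0.0732). At 30 °C the ranges overlapped, with 2.35 to 4.01 CPM in FAKO mice. Hist1h1c was 0.55 higher in FAKO mice at 5 °C (SE 0.19, adjusted p = 0.204), and 0.28 without replicate 24.

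The difference of the cold responses, tested as an interaction, was positive in 35 of the 39 genes, meaning a weaker fall or a larger rise in mice labelled FAKO. Its median was 0.43 on the log2 scale against 0.04 over all genes. Only Hist1h3f passed the test (1 of 39, 2.56%; 0.289% of all genes were higher and 0.868% lower), with a difference of 0.91 (SE 0.22, adjusted p = 0.04). This call rested on the setting, as it was lost in 18 of 36 alternatives, with adjusted p-values from 0.0133 to 0.151 and values from 0.73 to 1.03. The mice whose removal lost the call were replicates 2, 5 and 6 (control, 30 °C), 8, 9, 10, 11 and 13 (FAKO, 30 °C), 16, 17, 19 and 21 (control, 5 °C) and 24, 25 and 27 (FAKO, 5 °C), and without replicate 24 it was 0.92 (adjusted p = 0.0562). An unadjusted p below 0.05 was found for 13 genes (33.3% against 16.2%), and DESeq2 called 6 of the 30 genes to which it gave an adjusted p (20% against 1.62% of all genes). The highest value of the 39 was that of Hist1h1e (0.94, SE 0.34, adjusted p = 0.168), which did not pass and was 0.53 without replicate 24. Those of Hist1h1d (0.89, SE 0.32, adjusted p = 0.158) and Hist1h3e (0.89, SE 0.25, adjusted p = 0.0712) did not pass either.

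Calls made within each genotype also differed in other lists. Over all genes 31.6% rose and 33.4% fell in cold control mice, and 33.7% and 34.9% in cold FAKO mice. Of 12 tested short RNAs without a poly(A) tail, which share that property with histone mRNAs, 1 rose in cold control mice and 10 in cold FAKO mice. Their interaction had a median of 0.41 and was positive in 12 of 12, and it passed the test for Rn7sk (0.39, adjusted p = 0.0342). Erythroid markers, none of which was at 0 in all mice, rose in 0 of 6 in control mice and in 6 of 6 in FAKO mice in the cold, with sums of 233 to 1123 and 417 to 685 CPM in control mice at 30 and 5 °C and 290.1 to 609.9 and 518 to 1500 CPM in FAKO mice. B and plasma cell markers fell in 4 of 6 in cold control mice and in 1 of 6 in cold FAKO mice. Their sums ran from 10.05 to 24.2 and from 2.45 to 5.34 CPM in control mice, and from 10.9 to 18.9 and from 2.62 to 32.2 CPM in FAKO mice. Neutrophil markers rose in 4 of 5 tested in control mice, where their sum went from 2.06 to 6.47 up to 5.54 to 11.9 CPM, and in 5 of 5 in FAKO mice, from 1.51 to 3.89 up to 4.90 to 64.6 CPM. No gene of these lists passed edgeR's test between the labels at 5 °C, and only Rn7sk passed that of the difference. The part of these RNAs and cells in the histone results was not tested.

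Histone genes that are used outside S phase gave a mixed picture. Of 11 replication-independent genes 10 were tested, and 2 rose and 5 fell in cold control mice (31.6% and 33.4% of all genes did). H3f3b, 1 of the genes for H3.3, rose by 0.87 (SE 0.13, adjusted p = 1.73e-06) from a median of 71.8 to 136 CPM, and H2afy2, which codes for macroH2A2, rose by 2.73 (SE 0.11, adjusted p = 7.06e-17) from 2.94 to 19.95 CPM. Cenpa, the centromeric H3, fell by 2.01 (SE 0.22, adjusted p = 5.96e-09), H2afv by 1.32, H1f0, the linker histone of non-dividing cells, by 1.25, H2afz by 0.47 and H3f3a by 0.35. H2afx, H2afj and H2afy were at 0.39, 0.25 and -0.05 and did not pass, and H1fx was too low to test. In FAKO mice 4 rose (H3f3b, H2afy2, H2afx and H2afj) and 3 fell (Cenpa, H2afv and H2afz), where 33.7% and 34.9% of all genes did.

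Of 20 tested genes that make and process histone mRNA, 8 were higher and 6 lower in cold control mice, where 31.6% and 33.4% of all genes were. NPAT and SLBP themselves did not pass the test in either genotype. Npat had a median of 20.8 CPM at 30 °C and 21.7 at 5 °C in control mice (log2 fold change 0.08, adjusted p = 0.348), and Slbp 24.4 and 27.3 CPM (0.23, adjusted p = 0.0637). Ncbp1, the large subunit of the nuclear cap-binding complex, rose by 1.32 (SE 0.10, adjusted p = 5.04e-12), and Srrt, which codes for its partner ARS2, by 1.12 (SE 0.09, adjusted p = 3.2e-11). Lsm10, a protein of the U7 snRNP, fell by 2.18 (SE 0.15, adjusted p = 7.61e-13), and Zfp473, a zinc finger protein that joins in histone mRNA processing, fell by 1.52 (SE 0.47, adjusted p = 0.00588). In FAKO mice 8 were higher and 7 lower, where 33.7% and 34.9% of all genes were.

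Among 17 genes for histone chaperones and for acetylation of new histones, 7 rose and 7 fell in cold control mice and 9 rose and 4 fell in FAKO mice. Over all genes 31.6% rose and 33.4% fell in control mice, and 33.7% and 34.9% in FAKO mice. Supt6 rose by 1.54 (SE 0.06, adjusted p = 6.01e-17) and Ipo4, an importin that carries H3 and H4, by 1.52 (SE 0.09, adjusted p = 5.05e-14). Chaf1a and Chaf1b code for subunits of CAF-1, which loads histones behind the replication fork. Each fell by 1.70 (adjusted p = 1.36e-05 and 8.17e-05). No value is given here for Rbbp4, another subunit in the list.

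Of 31 S phase genes, among them Slbp and E2f1 of the list above, 18 fell and 2 rose in cold control mice, with a median log2 fold change of -0.74. In FAKO mice 22 fell and 3 rose, with a median of -0.86. The shares over all genes were 33.4% and 31.6% in control mice and 34.9% and 33.7% in FAKO mice. Ccne1 (cyclin E1) fell by 2.74 (SE 0.28, adjusted p = 2.36e-09) and Gmnn (geminin) by 2.67 (SE 0.19, adjusted p = 3.09e-12), and Mcm2, part of the replicative helicase, by 1.40 (SE 0.17, adjusted p = 8.3e-08). Tyms and Rrm1, which serve nucleotide synthesis, rose by 1.16 and 0.39 (adjusted p = 6.75e-08 and 0.00271), and Pcna was at 0.02 (adjusted p = 0.801). The S phase interaction had a median of 0.04, against 0.43 for the histone genes.

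Of 25 G2 and mitosis genes, 6 were lower and 1 higher in control mice and 8 were lower in FAKO mice. Over all genes 33.4% were lower and 31.6% higher in control mice, and 34.9% were lower in FAKO mice. Birc5 fell by 1.07 (SE 0.39, adjusted p = 0.018), Aurka by 0.92 (SE 0.36, adjusted p = 0.0258), and Ttk rose by 1.59 (SE 0.43, adjusted p = 0.00215). Mki67 and Top2a, markers of dividing cells, had medians of 12.8 and 8.50 CPM in control mice at 30 °C and 7.85 and 5.46 CPM at 5 °C, and did not pass (log2 fold changes -0.34 and -0.32, adjusted p = 0.26 and 0.285). Of 14 genes for cell cycle exit, 6 rose and 8 fell in control mice (31.6% and 33.4% of all genes did). Cdkn1a, which codes for the cell cycle inhibitor p21, rose by 4.78 (SE 0.26, adjusted p = 1.76e-14) and Gadd45g by 1.91 (SE 0.38, adjusted p = 7.78e-05), whereas Gadd45b fell by 1.61 (SE 0.32, adjusted p = 7.88e-05) and Btg2 by 1.59 (SE 0.43, adjusted p = 0.00219).

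**Figure D5:**
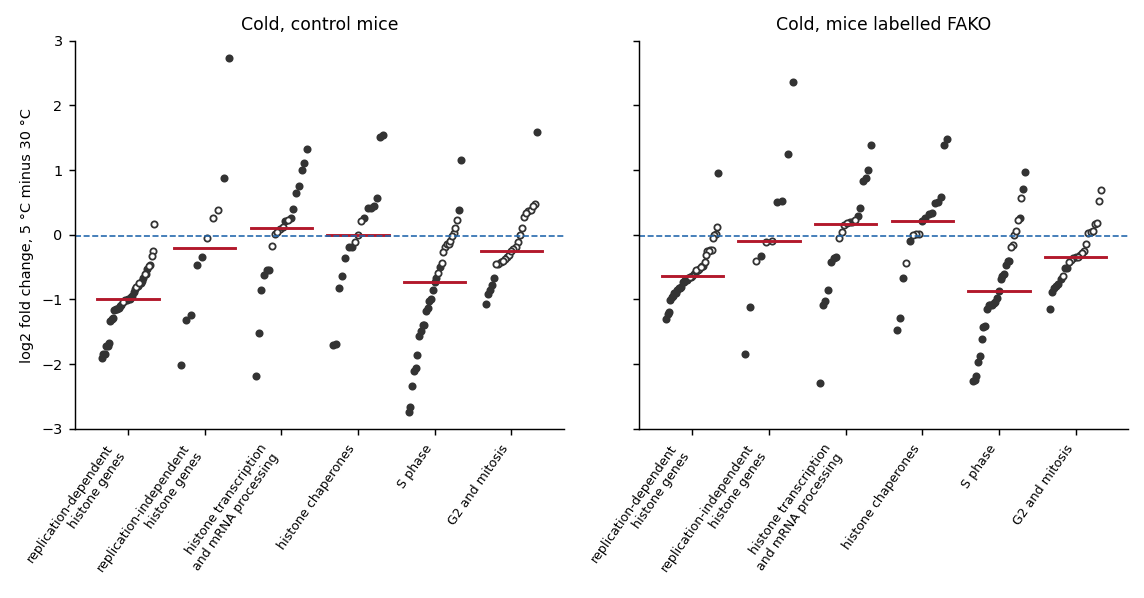
Log2 fold change between 5 °C and 30 °C of each tested gene of 6 lists in control mice (left) and mice labelled FAKO (right). Filled points passed edgeR's test, red lines are list medians (-0.99 and -0.64 for the replication-dependent histone genes), and the dashed line is the median over all genes.

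Histone genes of 1 class are near copies of each other, so reads can be hard to place. In 28 of the 39 tested genes at least 50% of the 100-base stretches (the read length) occurred in no other annotated transcript, and 24 of these fell in cold control mice, as did 6 of the 11 below that share. The median folds were 0.501 and 0.511. Of the tested genes with a stem-loop in the annotation, 19 of 26 fell, and of those without one 11 of 13 fell, with median folds of 0.499 and 0.517. Some of the 13 have short annotated transcripts, such as 312 bases in Hist1h4k and 381 in Hist1h2bn. A stem-loop past the annotated end could not be found, so this split does not separate kinds of mRNA.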

How the data were processed

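The authors deposited 1 table of raw read counts per gene for 26 mice, which was used as deposited. Per the labels and the study's methods, rRNA-depleted stranded libraries were read as single 100-base reads, aligned to mm10 with STAR 2.5.2b and counted with featureCounts 1.5.2 on GENCODE M13. The handling of reads that fit several genes or places is not given in the sources used here. Symbols, positions and transcripts came from GENCODE M21. The histone genes, the other lists and the tests were chosen with earlier results of these data known. No column was left out.

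In R 4.3.3 with edgeR 4.0.16 and limma 3.58.1, genes were kept with filterByExpr, scaled with TMM and fitted with 1 term per group for all 26 mice (glmQLFit in legacy mode, glmQLFTest). P-values were adjusted by Benjamini-Hochberg over all 17286 tested genes, with a threshold of 0.05. Lists were described by counts and medians. Exact permutation tests used log2(CPM + 0.1). Named are the 12 members with the highest mean CPM, the 3 with the largest called changes each way in each comparison, members whose genotype labels did not overlap, replication-independent histone genes, and in the other lists the 2 largest called changes each way in cold control mice with Npat, Slbp, Mki67, Top2a, Mcm2, Pcna, Ucp1 and Afdn. Members of H2A, H2B and H3 named for missing the test, Hist1h4i, Hist1h1a and Hist1h1b, and Rn7sk were chosen after their values were seen. Alternatives were 2 other scalings, 2 other filters, edgeR's revised method, robust empirical Bayes, DESeq2 1.42.0 (with and without independent filtering), fits to the groups compared, members of at least 500 counts, and leaving out each mouse. Added after seeing the data were leaving out 2 mice, leaving out mitochondrial genes, and a split by sequence uniqueness. The replicates are single mice, and all 73 pairs of mice in a group differed by more than sampling noise (lowest chi-square per gene 4.83). The steps were tested on simulated data.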

Additional observations from a re-analysis of the deposited data

Results flagged for a closer look

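Among 68 groups of values checked, a mouse stood far from the rest of its group in 9, where chance gives about 1 in 20 groups. The groups share mice, and the summed level holds the values of single genes, so 9 cannot be set against that rate. In FAKO mice at 5 °C, replicate 24 had 281.5 CPM of Hist1h1c, 42.82 of Hist1h1e and 8.983 of Hist1h1d, and its summed level over the histone genes was 513.1 CPM, each above the other 6 mice. Replicate 27 of the same group was the lowest for Hist1h2bc at 10.91 CPM. In control mice at 5 °C, replicate 18 had the highest summed level at 266.7 CPM, and replicate 16 the lowest Hist2h2ac at 2.017 CPM. In control mice at 30 °C, replicate 4 had the highest Hist1h2bc at 30.52 CPM. In FAKO mice at 30 °C, replicate 11 had the highest Hist2h2ac at 5.662 CPM.

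The cold response of Hist1h3f differed between the genotype labels, by 0.9091 on the log2 scale in edgeR's test of the difference itself (adjusted p = 0.04). This call was lost in 18 of 36 alternatives, with adjusted p-values up to 0.151. No cause of these values was tested.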

How the results depend on the processing

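Under the alternatives run, the count of histone genes lower in cold control mice was 28 to 32 when 1 mouse was left out, 33 without replicates 7 and 28 together, and 17 of the 18 tested when at least 10 counts were required in every mouse, a filter that leaves fewer genes. In FAKO mice it was 19 to 26 and 13 of 18, and Hist1h1c remained the 1 that rose (1 to 1). Between the labels at 5 °C, where edgeR called 0, the count higher was 0 to 1 without 1 mouse, 1 with at least 10 counts in every mouse and 2 with DESeq2, also without independent filtering. For the difference of the responses, with 1 called, it was 0 to 2 without 1 mouse, 0 with library size alone, with every gene of at least 1 count and without both mice, and 6 with DESeq2 in both forms (of all genes DESeq2 called 1.62% higher, and 0.882% between the labels at 5 °C). It was 0 without replicate 24 of the cold FAKO mice, and 2 without replicate 18 of the cold control mice or replicate 26 of the cold FAKO mice.

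Library size alone moved the median of cold in FAKO mice from -0.64 to -0.94, while that of all genes moved from -0.03 to -0.34. In cold control mice the shift of all genes was from -0.01 to -0.14 and of the histone genes from -0.99 to -1.12. Directions changed only in values that were not called with TMM. Hist1h2bc in FAKO mice (0.02) was -0.31 with library size alone, past the threshold as lower (adjusted p = 0.0465, edgeR), -0.14 with upper-quartile factors, -0.048 with at least 10 counts in every mouse, -0.024 in a fit to the groups compared and -0.058 without replicates 7 and 28, and -0.03 to 0.10 without 1 mouse. Hist2h4 there was 0.014 with DESeq2 in both forms, 0.00017 without mitochondrial genes and -0.084 to 0.047 without 1 mouse. With library size alone Hist1h3e between the labels at 30 °C was 0.059 and the difference of the responses of Hist2h2be was -0.10. Without replicate 18 of the cold control mice that of Hist1h3a was 0.15 (range -0.43 to 0.15 without 1 mouse). Of the other genes not called in FAKO mice, Hist2h4 was lower past the threshold with library size alone, Hist1h4h also with upper-quartile factors and without replicates 7 and 28, Hist1h3f also with upper-quartile factors and without replicate 8, and Hist2h2ac in 7 settings, which were both scalings, at least 10 counts in every mouse, without replicates 7 and 28 together, and without replicate 8, 12 or 28. The cause was not tested. All 16 named histone genes kept their direction and call in cold control mice under every alternative in which they were tested. Hist4h4, Hist1h4b and Hist1h3a had no value there with at least 10 counts in every mouse.

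No paired analysis was possible because the groups share no replicate numbers. Libraries of 12705969 to 25732258 counts leave low members, such as the 10 untested genes with at most 148 counts in all, without a call.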

Other observations

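Of 10 nuclear-retained long noncoding RNAs, all of them tested, 4 rose and 4 fell in cold control mice (31.6% and 33.4% of all genes did). Neat1, the RNA around which paraspeckles form, rose by 2.45 on the log2 scale (SE 0.19, adjusted p = 1.49e-11) from a median of 607 to 3589 CPM in control mice, and by 0.84 (SE 0.17, adjusted p = 0.000134) from 933 to 1795 CPM in FAKO mice. The difference of the responses was -1.61 (adjusted p = 0.00268, edgeR). Kcnq1ot1 had a difference of -0.48 (adjusted p = 0.0327) and Airn of -0.56 (adjusted p = 0.0232). These values have the opposite sign to the difference of the histone genes. Their part in it was not tested.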
